A study of Mus musculus with 16 samples.

Results

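The genes described here are the factors and targets of the YAP/TAZ pathway in mouse lung endothelial cells (ECs). They comprise 10 of the 43346 genes in the deposited expression table and were taken by symbol: the coactivators Yap1 and Wwtr1 (which encodes TAZ), the DNA-binding partners Tead1 and Tead4, the targets Ctgf, Cyr61 and Ankrd1, and Amotl2, Lats2 and Ajuba, which act back on the pathway. RNA was sequenced from 16 libraries, each from the ECs of 1 mouse, sorted as CD31 positive and negative for CD45, EpCAM and GFP. All mice were of the FVB background and carried a Col1α1-GFP reporter, in which the collagen promoter marks fibroblasts for removal. Young mice were 2 months and aged mice 18 months old. Each received intratracheal bleomycin, which injures the alveoli and leads to fibrosis, or PBS as Sham control, and lungs were taken in the early resolution phase. The groups were Young Sham (n = 5, replicates 21 to 25), Young Bleo (n = 4, replicates 17 to 20), Aged Sham (n = 3, replicates 13, 14 and 15) and Aged Bleo (n = 4, replicates 1, 2, 3 and 5).

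YAP and TAZ are transcriptional coactivators without a DNA-binding domain of their own. When the Hippo kinase cascade is active, the LATS kinases phosphorylate them and hold them in the cytoplasm, and when it is inactive, as on a stiff matrix or in spread cells, they enter the nucleus and bind TEAD factors on target promoters. In ECs they are known for their part in vessel sprouting and in the response to flow. Since this control acts on the proteins, the mRNA of Yap1 or Wwtr1 does not measure their activity, and the targets are the usual transcript readout.

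The libraries held between 20907113 and 71035301 counts each. The defining EC markers Pecam1, Cdh5, Cldn5, Kdr, Tie1, Egfl7, Emcn and Erg were detected in all libraries, with Cldn5 and Egfl7 the most abundant on average and Erg the least (938 to 2203 normalized counts, which are counts divided by the DESeq2 size factor). Their sum was 611154 to 682691 in Young Sham, 447957 to 544431 in Young Bleo, 573595 to 600338 in Aged Sham and 415289 to 552527 in Aged Bleo, lower in every other library than in Young Sham. The 8 genes did not move together. Against Young Sham, DESeq2 called Kdr and Cldn5 lower in Young Bleo (-1.64 and -0.92) and in Aged Bleo (-1.26 and -0.84), Emcn higher in Young Bleo (0.54), and Erg higher in Aged Sham, Young Bleo and Aged Bleo (0.67, 0.69 and 0.53), while the other 4 were not called. edgeR did not call Erg in Aged Sham (adjusted p = 0.0558) or Kdr in Aged Bleo (adjusted p = 0.09). Markers of other cells were present too, and several lists moved with the groups. The 6 leukocyte markers summed to 3010 to 5087 in Young Sham, 17518 to 53479 in Young Bleo, 7443 to 22935 in Aged Sham and 25364 to 170806 in Aged Bleo, most of it Lyz2. The 6 pericyte and smooth muscle markers ran the other way, from 8523 to 19072 in Young Sham to 2188 to 3638 in Aged Bleo. The 6 fibroblast markers summed to 6814 to 16151 in Young Sham and 8586 to 13845 in Young Bleo. In Aged Sham the fibroblast sum was 6375 to 11050, and in Aged Bleo 3432 to 6932. The 5 lymphatic EC markers summed to 29522 to 39905 in Young Sham, 66128 to 151322 in Young Bleo, 36449 to 42119 in Aged Sham and 37668 to 62255 in Aged Bleo. The 6 mesothelial markers summed to 137 to 582 in Young Sham, 1508 to 4219 in Young Bleo, 1339 to 3841 in Aged Sham and 307 to 1941 in Aged Bleo. The 15 immediate early and dissociation genes summed to 131430 to 167117 in Young Sham, 142713 to 181477 in Young Bleo, 165718 to 298681 in Aged Sham and 194995 to 247231 in Aged Bleo. The 5 platelet markers summed to 30482 to 54523 in Young Sham, 11778 to 26997 in Young Bleo, 74317 to 398518 in Aged Sham and 7128 to 53168 in Aged Bleo, so that Aged Sham lay above all other libraries and Young Bleo below Young Sham. Aged Sham replicate 14 held the 398518, against at most 110357 elsewhere. The part of these cells and genes in the results was not tested. All 16 libraries expressed 4 Y-linked genes and had at most 23 counts of Xist, although the methods name both sexes.

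Because the pathway acts through TEAD factors, the promoter windows of the members were searched for the TEAD core GGAATG on both strands, read as CATTCC on the other. The RefSeq windows cover 250 bases before the transcription start of each gene and 50 from it, in build GRCm38.p6, and 7 of the 10 members matched an entry by symbol. Tead1, Tead4 and Ctgf did not. All 7 members with an entry held the core in at least 1 window, and 8 of their 9 windows held it. Of all 32851 windows, 14.7% held the core, and 1.36% held it in 2 or more places, as the Ankrd1 and Ajuba windows did. The targets Ankrd1 and Cyr61 and the regulator Ajuba are shown for the whole stretch upstream of the start, on the minus strand at chr19:36119845-36120094, chr3:145649986-145650235 and chr14:54577662-54577911. Capitals mark the core or its reverse complement.

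Ankrd1: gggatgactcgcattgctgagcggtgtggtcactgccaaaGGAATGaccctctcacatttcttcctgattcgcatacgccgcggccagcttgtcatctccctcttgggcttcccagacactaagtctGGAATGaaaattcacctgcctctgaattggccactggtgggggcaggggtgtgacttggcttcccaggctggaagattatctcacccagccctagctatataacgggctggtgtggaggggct

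Cyr61: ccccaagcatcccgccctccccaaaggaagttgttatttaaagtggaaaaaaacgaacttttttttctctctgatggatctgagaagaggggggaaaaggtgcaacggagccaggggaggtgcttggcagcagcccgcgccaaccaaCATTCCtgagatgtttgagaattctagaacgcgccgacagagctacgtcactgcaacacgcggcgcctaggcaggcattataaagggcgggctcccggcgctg

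Ajuba: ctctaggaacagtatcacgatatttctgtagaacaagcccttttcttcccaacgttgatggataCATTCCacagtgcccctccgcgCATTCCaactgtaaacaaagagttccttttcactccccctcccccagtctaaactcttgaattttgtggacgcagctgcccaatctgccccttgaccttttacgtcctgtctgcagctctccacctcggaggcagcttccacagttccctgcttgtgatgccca

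The match in Cyr61 began 103 bases upstream of the start, those in Ankrd1 at 210 and 123 bases, and those in Ajuba at 186 and 164 bases. For the coactivators and the remaining regulators a shorter stretch around the match is given. Yap1 lies on the minus strand (chr9:8004705-8004764), as does Wwtr1 (chr3:57576014-57576073), while Amotl2 is on the plus strand (chr9:102717712-102717771). In Lats2 (minus strand, chr14:57746102-57746131) the match begins 5 bases from the start inside the transcribed sequence.

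Yap1: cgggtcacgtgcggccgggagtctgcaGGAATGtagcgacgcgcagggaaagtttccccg

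Wwtr1: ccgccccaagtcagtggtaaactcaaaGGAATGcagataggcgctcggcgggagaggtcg

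Amotl2: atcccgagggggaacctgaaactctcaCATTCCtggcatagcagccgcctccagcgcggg

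Lats2: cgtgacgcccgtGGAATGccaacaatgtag

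Other motifs were scarcer in these windows. The AP-1 site TGANTCA was found in 7.81% of all windows and in none of those of the members. The CArG box, bound by serum response factor, was in 1.63% of all windows and also in no member window. The ETS-type sequence CAGGAAG, searched on both strands, was in 13.3% of all windows and in those of Ankrd1 and Lats2. A match is a run of letters and not a measured binding site, and no match says nothing of sequence outside the window.

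Per unit of transcript length, the members spanned a wide range of levels. In deposited FPKM (fragments scaled to exon length and library total), Cyr61 was highest with a mean of 49.4 over the 16 libraries (23.9 to 93.3). Wwtr1 followed at 20.0 (12.4 to 30.6), Ctgf at 14.6 (6.41 to 28.5), Amotl2 at 8.06 (4.89 to 11) and Lats2 at 7.23 (4.21 to 10.8). Yap1 at 1.66 and Tead4 at 1.64 had nearly the same mean and overlapped (0.96 to 2.14 and 0.849 to 2.81), as did Ajuba at 1.35 (0.29 to 3.88). Ankrd1 was at 0.346 and Tead1 at 0.097, the lowest. The ranges of neighbours in this order overlapped, except those of Lats2 and Yap1. They did so at the top as well, where Wwtr1 (26.5) exceeded Cyr61 (23.9) in Young Bleo replicate 17 and Ctgf (28.5) exceeded Cyr61 (26.6) in Aged Sham replicate 14.

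**Figure D1:**
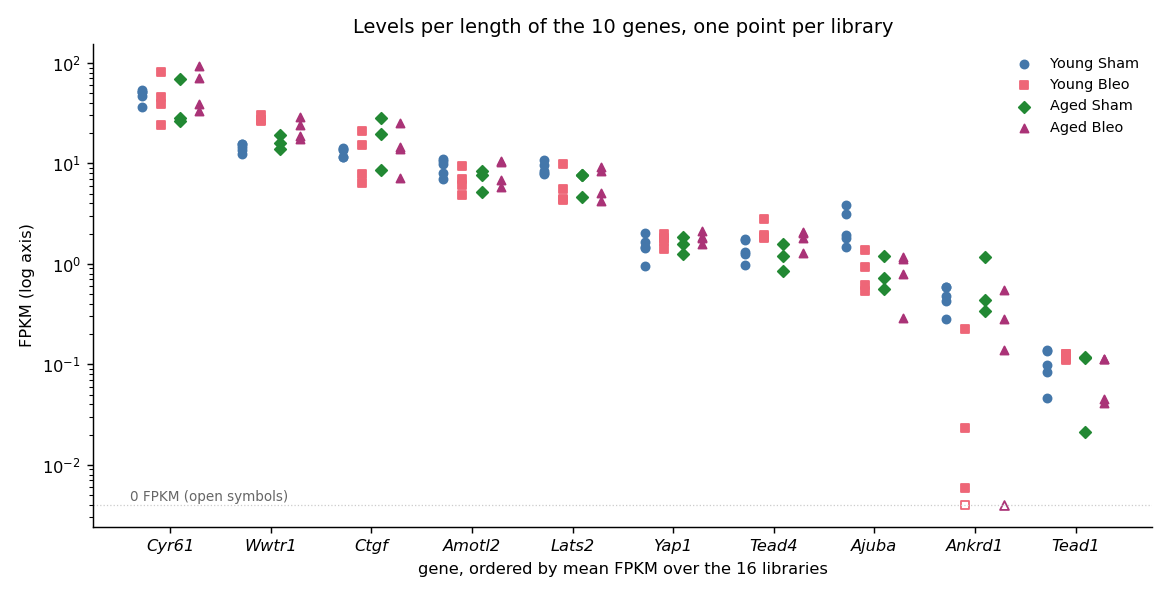
FPKM on a log axis for the 10 genes, ordered by their mean, with 1 point per library coloured by group; open symbols stand for 0 FPKM. Cyr61, Wwtr1, Ctgf, Amotl2 and Lats2 lay above 4 FPKM in every library, and Wwtr1 lay above Yap1 in all 16.

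A gene was called changed where the DESeq2 Wald test, adjusted over all genes by Benjamini-Hochberg, gave an adjusted p of at most 0.05 and the log2 fold change was at least 0.5 in size. All 10 members were tested in each of the 6 comparisons. In Young Bleo against Young Sham, the response to injury in young ECs, 3 of the 10 were called (Wwtr1 higher, Ajuba and Ankrd1 lower), where 13.9% of the 18515 genes tested were called, 7.57% higher and 6.35% lower. In Aged Sham against Young Sham, which compares the ages without bleomycin, 1 was called (Ajuba, lower), against 3.35% of genes in all and 1.11% lower. Platelet, mesothelial and leukocyte marker sums also differed between these groups, so that age and cell make-up cannot be told apart here. In Aged Bleo against Young Sham, 2 were called (Wwtr1 higher, Ajuba lower), against 9.72% of genes, 6.58% higher and 3.14% lower. The libraries of both groups did not overlap for 4 members in Young Bleo against Young Sham (Wwtr1, Tead4, Ankrd1 and Ajuba), beside 14.8% of genes, and for 2 members (Wwtr1 and Ajuba) in Aged Sham and in Aged Bleo against Young Sham, beside 8.73% and 10.8%. Counts over so few genes do not set the members apart from these backgrounds.

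Within aged mice, Aged Bleo against Aged Sham, DESeq2 called none of the 10 where 5.83% of all genes were called, and no member had an unadjusted p under 0.05 by this test. edgeR's quasi-likelihood test also called 0 members (0.797% of genes) and found 0 under an unadjusted p of 0.05. limma on FPKM called 0 (0.316% of genes), with 3 members under an unadjusted p of 0.05. No member's libraries were separate between these groups, where 12.1% of genes were. Aged Bleo against Young Bleo likewise gave 0 calls by DESeq2 (1.03% of genes), edgeR (0.0437%) and limma (0.0829%), with 0, 0 and 1 members under an unadjusted p of 0.05, and 0 members with separate groups beside 5.08% of genes. The aged response to bleomycin minus the young one was tested as a contrast of its own. It called 0 members by DESeq2 (0.381% of genes), edgeR (0.00546%) and limma (0.00753%). By each tool 2 members had an unadjusted p under 0.05, by DESeq2 Wwtr1 and Ajuba. The 3 comparisons with Young Sham share those 5 libraries and are not independent of each other. The median log2 fold change of the members was -0.08, -0.07 and 0.04 in the comparisons of Aged Sham, Young Bleo and Aged Bleo with Young Sham, beside 0.02, 0.01 and 0.02 over all genes tested.

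**Figure D2:**
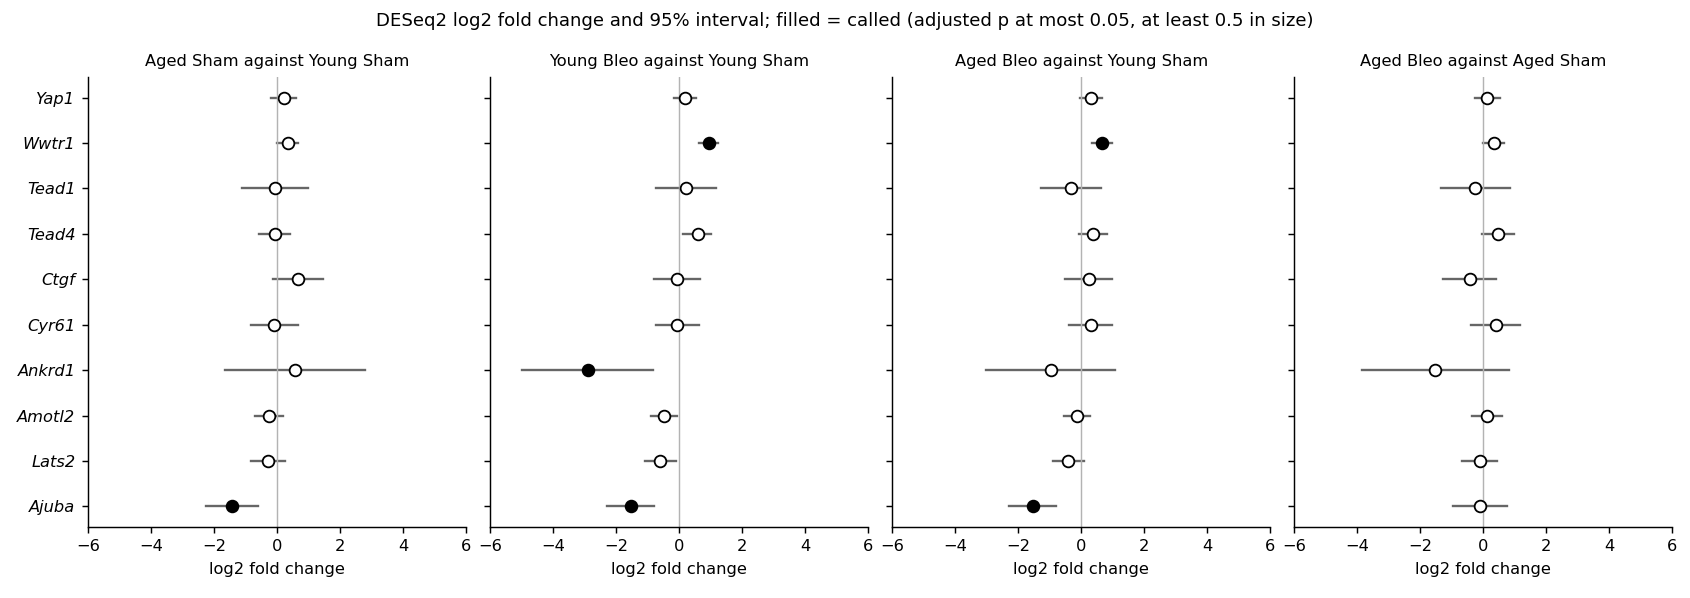
Log2 fold change of each member (points) with its 95% interval (lines) in 4 comparisons; filled points were called. Wwtr1 lies above 0 and Ajuba below 0 in both comparisons of bleomycin-treated mice with Young Sham, and all points are open in Aged Bleo against Aged Sham.

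Wwtr1, which encodes the coactivator TAZ (chr3:57455649-57575910 in mm10), was the one member called higher. Its normalized counts were 7115, 7197, 7224, 6343 and 6618 in Young Sham replicates 21 to 25, and 12707, 14606, 13288 and 12120 in Young Bleo replicates 17 to 20. The lowest Young Bleo library thus lay far above the highest Young Sham library. Expression rose 1.91-fold in young mice after bleomycin, a log2 fold change of 0.93 (SE 0.155, DESeq2 adjusted p = 2.7e-07), and the call held in all 16 fits that each left out 1 library. In bulk RNA, a change in transcript per cell and a change in the share of cells that express a gene cannot be told apart.

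In aged mice the Wwtr1 values were less uniform. Aged Sham replicates 13, 14 and 15 had 7823, 10142 and 7992, and Aged Bleo replicates 1, 2, 3 and 5 had 13838, 12450, 8744 and 8327. Aged Bleo replicates 1 and 2 reached the Young Bleo range, while 3 and 5 fell inside the range of Aged Sham. Against Young Sham, Wwtr1 rose 1.57-fold in Aged Bleo (log2 fold change 0.65, SE 0.155, DESeq2 adjusted p = 0.00087). Against Aged Sham the log2 fold change was 0.33 (95% interval -0.02 to 0.67, adjusted p = 0.307), and the aged response minus the young one was -0.61 (-1.07 to -0.15, adjusted p = 0.359). All 3 Aged Sham libraries also lay above all 5 Young Sham libraries, but this comparison was not called (0.33, -0.00 to 0.66, adjusted p = 0.354).

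Leukocyte markers moved with Wwtr1 between libraries. Aged Bleo replicates 1 and 2 had the highest sums of the 6 leukocyte markers, 170806 and 105535, against 42519 and 25364 in replicates 3 and 5. Among Aged Sham libraries, replicate 14 had both the most Wwtr1 and the largest sum, 22935, beside 7911 and 7443. Both lists of values put replicates 1 and 2 on top. In a fit without them, added after seeing the data, the call in Aged Bleo against Young Sham was lost (log2 fold change 0.31, DESeq2 adjusted p = 0.245). These Aged Bleo libraries had the most Wwtr1 of their group, so leaving them out lowers this change whatever the leukocyte sums. The call held in all 16 fits without 1 library, by edgeR (adjusted p = 0.0165) and by limma on FPKM (adjusted p = 0.0302). In Young Bleo the order was looser, and replicate 20, with the smallest sum there (17518), still had 12120 counts of Wwtr1. The lymphatic EC sum was higher in every Young Bleo library (at least 66128) than in any Young Sham library (at most 39905), as Wwtr1 was. The part of leukocyte or lymphatic EC RNA in the Wwtr1 values was not tested.

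**Figure D3:**
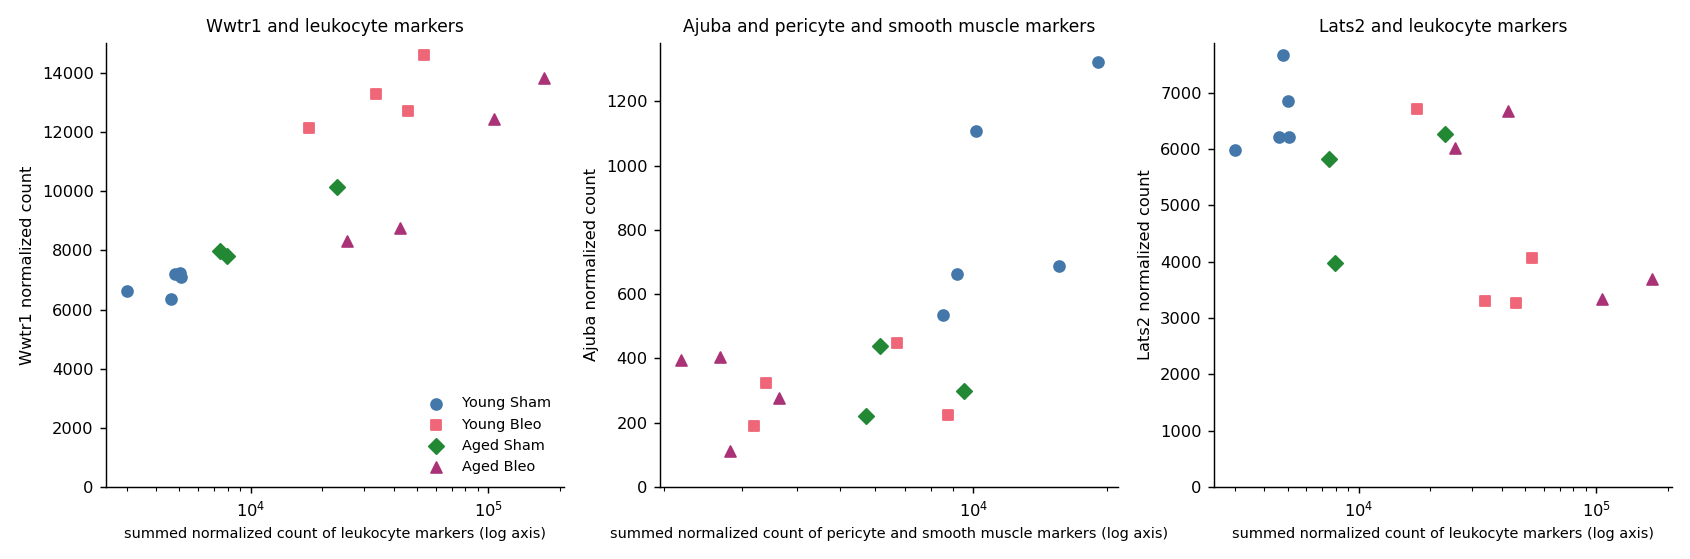
Normalized counts of Wwtr1, Ajuba and Lats2 against the summed normalized count of a marker list (log axis), with 1 point per library coloured by group. Aged Bleo replicates 1 and 2, with the largest leukocyte sums, have the most Wwtr1 of their group, yet Young Bleo replicate 20 with a sum of 17518 lies above all Sham libraries; the Ajuba values of Young Sham lie above all others.

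Yap1 (chr9:7931999-8004596), the paralog of Wwtr1, was called in no comparison. Its mean normalized count was 1401 ± 321 (SD, n = 5) in Young Sham, 1577 ± 163 (n = 4) in Young Bleo, 1604 ± 287 (n = 3) in Aged Sham and 1742 ± 234 (n = 4) in Aged Bleo. The libraries of all groups overlapped, from 953 in Young Sham replicate 24 to 1999 in Aged Bleo replicate 1. The log2 fold change in Young Bleo against Young Sham was 0.17, and its 95% interval of -0.18 to 0.53 leaves out a change as large as that of Wwtr1. The FPKM ratio of Wwtr1 to Yap1 was therefore 13.7 to 19 in Young Bleo but 7.69 to 12.9 in Young Sham, without overlap. It was 10.2 to 11 in Aged Sham and 10.1 to 13.4 in Aged Bleo, where the ranges met.

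Tead4 (chr6:128224288-128300823), a TEAD factor that recruits the coactivators to DNA, was higher in every Young Bleo library than its Young Sham mean. Young Sham replicates 21 to 25 had 471, 615, 607, 378 and 466 normalized counts, and Young Bleo replicates 17 to 20 had 1013, 671, 724 and 615. The groups did not overlap, but their nearest libraries both rounded to 615. The log2 fold change of 0.58 (0.13 to 1.02) was not called, with a DESeq2 adjusted p of 0.0669. It was called in a fit of both groups alone (DESeq2 adjusted p = 0.0385), which called 3152 genes in all against 2578 in the main fit. Neither edgeR (adjusted p = 0.106) nor limma on FPKM (adjusted p = 0.16) called it. Of the 16 fits without 1 library, 3 did. In Aged Bleo replicates 1, 2, 3 and 5 the values were 743, 806, 641 and 453, and against 360, 481 and 595 in Aged Sham the log2 fold change was 0.46 (-0.05 to 0.97, adjusted p = 0.337).

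Tead1 (chr7:112679318-112906807), another TEAD factor, was the scarcest member per length, with 27 to 188 raw counts per library. Its normalized counts ran from 24.7 in Aged Sham replicate 15 to 158 in Aged Sham replicate 13, so that a single group covered the whole range. No comparison was called, and the widest interval among comparisons of groups was that of Aged Bleo against Aged Sham (log2 fold change -0.25, -1.34 to 0.84). The SD was 67.3% of the mean in Aged Sham and 54.5% in Aged Bleo, against 9.67% in Young Bleo. The interval does not leave out a change of up to those bounds.

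Most TEAD transcript came from Tead4 and from Tead2, which is no member but belongs to the list of partner genes. Tead2 rose in Young Bleo against Young Sham (log2 fold change 1.38, SE 0.295, DESeq2 adjusted p = 0.00011) and in Aged Bleo against Young Sham (0.90, SE 0.295, adjusted p = 0.0272). The latter call was lost by edgeR (adjusted p = 0.068) and held in 11 of the 16 fits without 1 library. Its normalized counts were 441 to 718 in Young Sham, 1009 to 1993 in Young Bleo, 363 to 638 in Aged Sham and 628 to 1449 in Aged Bleo. Of the summed FPKM of the 4 TEAD genes, Tead2 gave 42.9% ± 2.2 (SD, n = 5) in Young Sham and 56.5% ± 7.13 (n = 4) in Young Bleo, while Tead4 gave 50.4% ± 1.9 and 38.8% ± 6.53. The ranges of both shares were separate between those groups. Tead1 and Tead3 stayed below 6% in every library. The sum itself was 1.97 to 3.62 FPKM in Young Sham and 4.35 to 6.39 in Young Bleo.

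Cyr61 and Ctgf encode secreted matricellular proteins and are the most used readouts of YAP/TAZ activity. Neither was called in any comparison, and both varied far more within 3 of the groups than in Young Sham. Cyr61 (chr3:145646971-145649985) had 9591, 7125, 10642, 11066 and 10668 normalized counts in Young Sham replicates 21 to 25, and 4851, 7990, 9646 and 15299 in Young Bleo replicates 17 to 20. Aged Sham replicates 13, 14 and 15 had 6772, 6014 and 14807, and Aged Bleo replicates 1, 2, 3 and 5 had 8034, 7272, 18664 and 14351. The coefficient of variation was 16.3% in Young Sham but 44.8% to 53% in the other groups. In each of those groups the highest library had at least 2.46 times the counts of the lowest.

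The mean Cyr61 levels of the groups hardly differed against that spread. The log2 fold change was -0.06 (-0.74 to 0.63) in Young Bleo and -0.09 (-0.84 to 0.65) in Aged Sham, each against Young Sham, and 0.39 (-0.38 to 1.17) in Aged Bleo against Aged Sham. It was 0.30 (-0.38 to 0.98) in Aged Bleo against Young Sham. The intervals of Young Bleo and Aged Sham leave out a rise as large as the 0.93 of Wwtr1, and both intervals of Aged Bleo include it.

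Ctgf (chr10:24595442-24598683) behaved alike. Young Sham replicates 21 to 25 had 3355, 3198, 3949, 4308 and 3999 normalized counts, with a coefficient of variation of 12.4%. Young Bleo replicates 17 to 20 had 1838, 2255, 4496 and 5683, Aged Sham replicates 13, 14 and 15 had 2865, 9101 and 5847, and Aged Bleo replicates 1, 2, 3 and 5 had 2056, 4285, 7172 and 4154. The highest value was in the platelet-rich library, Aged Sham replicate 14, where Cyr61 was at its group's lowest. The FPKM ratio of Cyr61 to Ctgf was 0.932 there and 2.39 to 5.51 in the other 15 libraries. That library also had the largest sums of immediate early and dissociation genes (298681) and of the 6 epithelial markers (43931). The part of these cells and genes in the Ctgf values was not tested. The log2 fold change of Ctgf in Aged Sham against Young Sham was 0.66 (-0.15 to 1.46, DESeq2 adjusted p = 0.473). It was 0.21 in the fit without Aged Sham replicate 14 and 0.99 in the fit without Aged Sham replicate 13. The gene model Gm15270 overlaps Ctgf and held 7487 counts, 10.1% as many as Ctgf itself, and how reads were divided between overlapping genes is not given in the sources used here.

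Ankrd1 (chr19:36111965-36119844), an ankyrin-repeat protein and classical YAP/TAZ target of muscle and endothelium, was scarce. Its normalized counts were 105, 48.6, 103, 90.1 and 77.2 in Young Sham replicates 21 to 25, and 39.9, 1.04, 0 and 3.86 in Young Bleo replicates 17 to 20. All 4 Young Bleo libraries lay below the lowest Young Sham library, and the library at 0 allowed up to 3.31 normalized counts, the value of 3 reads. Ankrd1 fell after bleomycin in young mice with a log2 fold change of -2.91 (SE 1.06, -4.99 to -0.83, DESeq2 adjusted p = 0.0412). That call was fragile. edgeR gave an adjusted p of 0.131, and 8 of the 16 fits without 1 library, each of Young Bleo replicates 18, 19 and 20 and all 5 Young Sham replicates, lost it. limma on log2(FPKM + 0.1) values kept it, with an adjusted p of 0.0376. Without Young Bleo replicate 17, the one with 39.9, the log2 fold change was -5.60. The summed platelet markers were likewise lower in every Young Bleo library (11778 to 26997) than in any Young Sham library (30482 to 54523). In Young Bleo the leukocyte and lymphatic EC sums were at least 17518 and 66128, against at most 5087 and 39905 in Young Sham. The 6 cardiac muscle markers overlapped in sum, at 520 to 1365 in Young Bleo and 578 to 2047 in Young Sham. Their median log2 fold change was -1.28, and 0 of them were called, where 13.9% of all genes were. The part of these cells in the Ankrd1 values was not tested.

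In aged mice Ankrd1 was measured at 69.9, 85.4 and 217 in Aged Sham replicates 13, 14 and 15, and at 0, 26.5, 49.2 and 96.5 in Aged Bleo replicates 1, 2, 3 and 5. These groups overlapped, and the log2 fold change of -1.53 had an interval of -3.85 to 0.80. The library at 0, Aged Bleo replicate 1, was also the one with the largest leukocyte sum and the most Wwtr1 of its group. Its limit at 3 reads was 2.35 normalized counts.

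**Figure D4:**
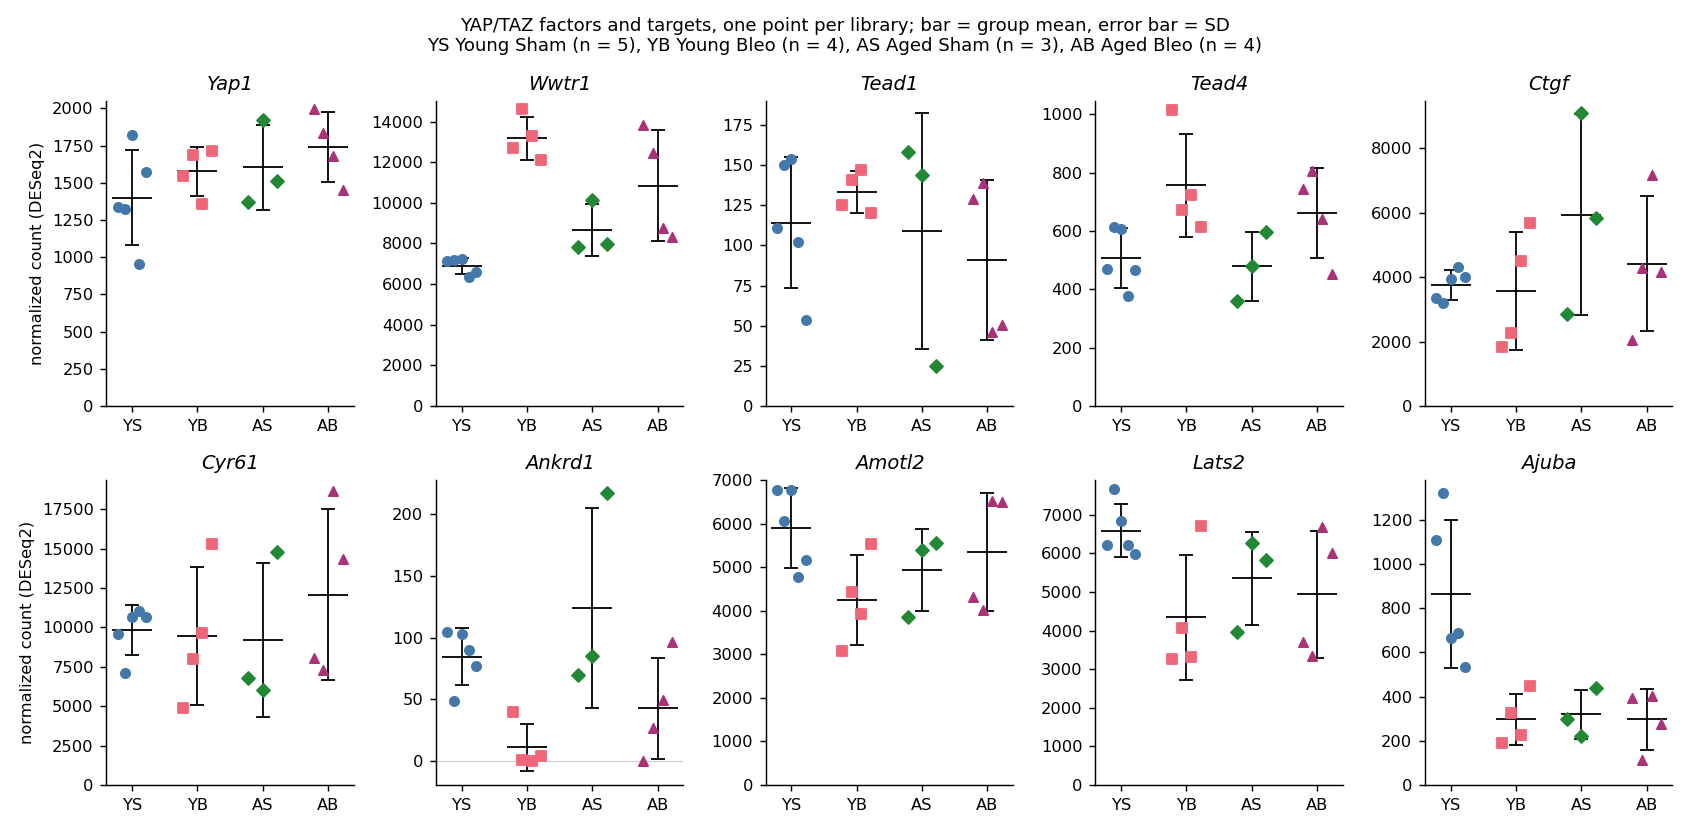
Normalized counts of the 10 genes in every library, with the group mean (bar) and SD (error bar). Wwtr1 in Young Bleo and Ajuba in Young Sham stand clear of the other young group, Ankrd1 is near 0 in 3 of 4 Young Bleo libraries, and Cyr61 and Ctgf spread widely outside Young Sham.

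Ajuba (chr14:54567469-54577661), a LIM-domain protein that binds and restrains the LATS kinases, was the member lower in all 3 comparisons with Young Sham. Its normalized counts were 1108, 1322, 664, 687 and 535 in Young Sham replicates 21 to 25. They were 191, 324, 224 and 449 in Young Bleo replicates 17 to 20, 298, 222 and 440 in Aged Sham replicates 13, 14 and 15, and 394, 111, 403 and 277 in Aged Bleo replicates 1, 2, 3 and 5. Every other library lay below the lowest Young Sham library, and the other 3 groups overlapped fully among themselves.

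Ajuba was 2.91-fold lower in Young Bleo (log2 fold change -1.54, SE 0.385, DESeq2 adjusted p = 0.0012), 2.92-fold lower in Aged Bleo (-1.54, SE 0.384, adjusted p = 0.0016) and 2.70-fold lower in Aged Sham (-1.43, SE 0.42, adjusted p = 0.0243), each against Young Sham. Aged Bleo differed from Aged Sham by only -0.11 (-0.97 to 0.75). The difference of the responses was 1.43 (0.28 to 2.57), with an adjusted p of 0.408. The call with age was not robust: edgeR gave an adjusted p of 0.141, and it was lost without Aged Sham replicate 13 or 14 or Young Sham replicate 21 or 22. The Young Bleo and Aged Bleo calls held in all 16 fits without 1 library and by edgeR (adjusted p = 0.0218 and 0.0297). limma on FPKM kept that of Young Bleo (adjusted p = 0.0478) and lost that of Aged Bleo (adjusted p = 0.0543). In a fit without both Young Sham replicates 21 and 22, added after seeing the data, all 3 Ajuba calls were lost. The log2 fold changes there were -0.97, -1.08 and -1.09 in Aged Sham, Young Bleo and Aged Bleo (DESeq2 adjusted p = 0.368, 0.0777 and 0.098). These libraries had the most Ajuba, so leaving them out shrinks the changes by design.

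The pericyte and smooth muscle markers moved with Ajuba in part. Pdgfrb, the defining pericyte receptor, was at 1260 to 4027 normalized counts in Young Sham and at most 1031 in any other library. The sum of the 6 markers did not divide the libraries as Ajuba did: Aged Sham replicate 13 (9518) lay above Young Sham replicates 23 (9175) and 25 (8523), and Aged Bleo (2188 to 3638) lay below Aged Sham (5716 to 9518), where Ajuba overlapped. The sum was largest in Young Sham replicate 22 (19072), which also had the most Ajuba, but replicate 24 had the next largest sum (15636) with only 687 counts of Ajuba. The summed endothelial and leukocyte markers did divide the libraries as Ajuba did, although single endothelial markers such as Erg were higher outside Young Sham. The endothelial sum was at least 611154 normalized counts in Young Sham and at most 600338 in any other library, and the leukocyte sum was at most 5087 in Young Sham and at least 7443 elsewhere. Of the 6 fibroblast markers, DESeq2 called 4 lower in Aged Bleo against Young Sham (edgeR 2), where 3.14% of all genes were. In Young Bleo and in Aged Sham it called 0 of them lower. The part of these cell types in the Ajuba values was not tested. Of the 6 pericyte and smooth muscle markers, DESeq2 called 1 lower in Aged Sham, 2 in Young Bleo and 6 in Aged Bleo, each against Young Sham, where 1.11%, 6.35% and 3.14% of all genes were called lower. edgeR called 0, 0 and 5 of them.

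Lats2 and Amotl2 are targets that feed back on the pathway, Lats2 as a kinase that inactivates YAP and TAZ and Amotl2 as a scaffold that holds them at cell junctions. Lats2 (chr14:57642077-57758388) had 6208, 7667, 6848, 6213 and 5983 normalized counts in Young Sham replicates 21 to 25 and 3267, 4071, 3309 and 6714 in Young Bleo replicates 17 to 20. Young Bleo replicate 20 lay within the Young Sham range and the other 3 lay well below it. The log2 fold change was -0.60 (-1.09 to -0.11) and was not called (DESeq2 adjusted p = 0.0874). Of the 16 fits without 1 library, 1 called it, that without replicate 20 (-0.89, DESeq2 adjusted p = 0.0014). Leaving out the library with the most Lats2 of its group enlarges the fall by design. That fit also called 3339 genes in all, against 2578 with every library. A fit of both groups alone called Lats2 too, while edgeR (adjusted p = 0.141) and limma on FPKM (adjusted p = 0.217) did not. Aged Bleo split in the same manner, with 3701 and 3346 in replicates 1 and 2 but 6674 and 6024 in replicates 3 and 5, beside 3976, 6262 and 5826 in Aged Sham replicates 13, 14 and 15. Lats2 overlaps Xpo4 and 2 further genes, which together held 10.4% as many counts.

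Amotl2 (chr9:102716672-102733418) had 6766, 6058, 6770, 4763 and 5156 normalized counts in Young Sham replicates 21 to 25 and 3082, 4427, 3933 and 5538 in Young Bleo replicates 17 to 20. Its log2 fold change of -0.48 (-0.89 to -0.06, DESeq2 adjusted p = 0.108) was not called. Aged Sham replicates 13, 14 and 15 had 3855, 5390 and 5552, and Aged Bleo replicates 1, 2, 3 and 5 had 4317, 4018, 6523 and 6490. The libraries that were high for Lats2 were the ones high for Amotl2 in these groups: Young Bleo replicate 20 and Aged Bleo replicates 3 and 5.

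How the members varied together is described here by Pearson's r of log2(normalized count + 1) over the 16 libraries, with no test. Amotl2 and Lats2 had r = 0.88 (Spearman's rho 0.81), and r was 0.88 again after the mean of each group was subtracted, and 0.85 when the 2 libraries farthest from the median of Amotl2 were left out as well. Cyr61 joined them within groups, at r = 0.70 with Amotl2 and 0.67 with Lats2, and Ctgf at 0.60 and 0.65. Without the 2 libraries farthest from the median, these were 0.55 and 0.53 for Cyr61 and 0.47 and 0.54 for Ctgf. Over all libraries, Spearman's rho with Amotl2 and Lats2 was 0.54 and 0.38 for Cyr61 and 0.34 and 0.36 for Ctgf. Within groups, rho was 0.68 and 0.61 for Cyr61 and 0.49 and 0.56 for Ctgf. Ajuba had r = 0.63 with Amotl2 and 0.72 with Lats2, which were 0.58 and 0.57 within groups and 0.39 and 0.42 without the 2 farthest libraries. Yap1 and Wwtr1 had r = 0.54, 0.57 within groups and 0.65 without the 2 farthest libraries. Wwtr1 ran with Tead4 at r = 0.72 and against Ankrd1 at r = -0.81 over all libraries, but within groups these were 0.51 and -0.65 and without the 2 farthest libraries only 0.33 and -0.31. All genes of a library share its depth and cell make-up. Within groups the summed leukocyte markers had r = 0.92 with Wwtr1, -0.73 with Cyr61 and -0.52 with Lats2, and the summed EC markers had -0.62, 0.74 and 0.64.

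**Figure D5:**
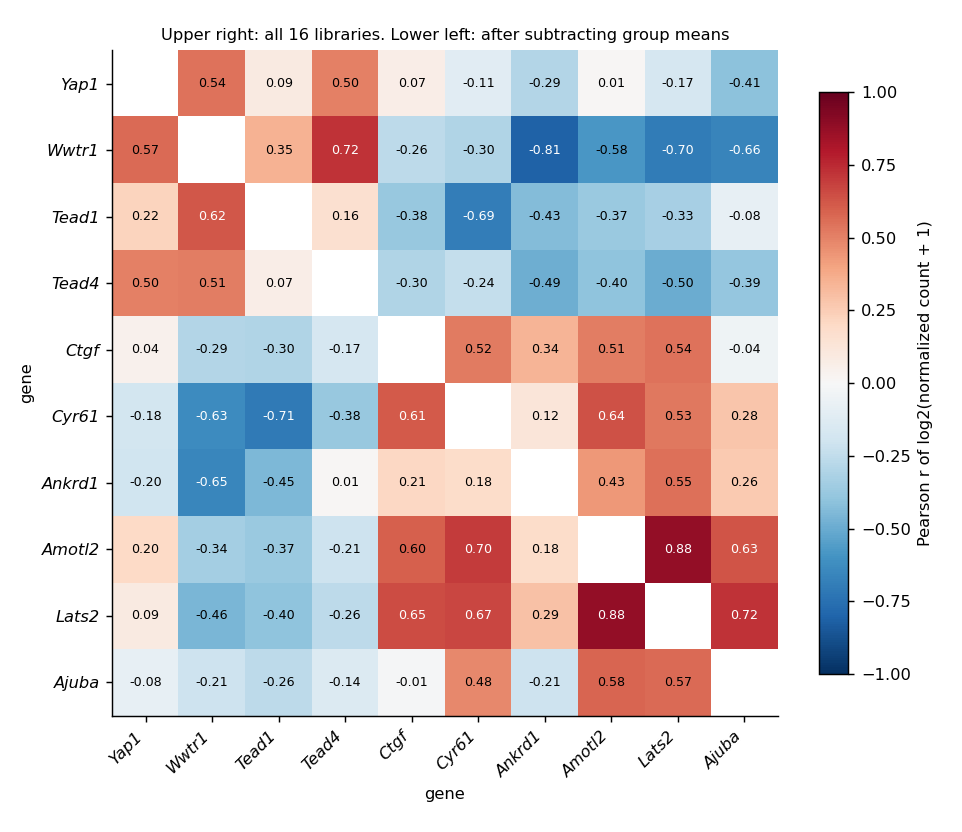
Pearson's r between members over 16 libraries, on log2(normalized count + 1): the upper right triangle uses all libraries as they are, the lower left one after subtracting group means. Cyr61, Ctgf, Amotl2 and Lats2 form a block of positive values (0.51 to 0.88 above the diagonal) while Wwtr1 is negative with each of them.

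Those most like a member in pattern over the 16 libraries were listed by Pearson's r, among the 13774 genes that averaged 50 or more normalized counts. Wwtr1 was nearest to Amd1, Amd2 and Ndrg1 (each 0.97). Lats2 was nearest to H2-T24 and Arhgef3 (0.97) and Cyth3 (0.96), and Amotl2 to Map4k2 (0.92), Leo1 and Cstf2 (0.91). Ajuba was nearest to Postn and Sema6a (0.90) and Rnf145 (0.89). Ctgf was nearest to its overlapping gene model Gm15270 (0.91). For Yap1, Cyr61 and Tead1 the best value was 0.82, 0.82 and 0.87, and for Tead4 and Ankrd1 0.90 and 0.89.

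The other genes of the pathway were taken as 43 genes in 4 lists, of which 41 could be tested. In Young Bleo against Young Sham 6 were higher and 7 lower, 13 of 41 where 13.9% of all genes were called, with a median log2 fold change of 0.05. In Aged Bleo against Young Sham 5 were higher and 2 lower (median 0.05), where 6.58% and 3.14% of all genes were. In Aged Bleo against Aged Sham 3 were higher and 1 lower (median 0.08), where 3.39% and 2.44% of all genes were, and in Aged Sham against Young Sham 0 and 1 (median 0.03), against 3.35% of all genes called in either direction.

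Of the 13 genes of the kinase core and its upstream regulators, DESeq2 called 3 in Young Bleo against Young Sham, 1 higher and 2 lower, where 7.57% of all genes were higher and 6.35% lower. Stk4, the MST1 kinase that activates LATS, fell by 1.24 on the log2 scale (SE 0.302, adjusted p = 0.00091), from 5044 to 7178 normalized counts in Young Sham to 1971 to 4380. Wwc1, the scaffold KIBRA, fell by 2.13 (SE 0.678, adjusted p = 0.0156; edgeR 0.0768). Map4k4, a kinase that acts beside Stk4, rose by 0.53 (SE 0.115, adjusted p = 0.00013) and rose in Aged Bleo against Aged Sham too, by 0.56 (SE 0.131, adjusted p = 0.0016; edgeR 0.0523). Sav1, the partner of Stk4, was called in Aged Bleo against Young Sham alone of the 6 comparisons (0.72, SE 0.202, adjusted p = 0.0071).

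Of the 7 junction and LIM-domain regulators, 2 were called in the young response, 1 in each direction, beside the same 7.57% and 6.35%. Frmd6, a FERM-domain activator of the cascade, fell by 1.35 (SE 0.348, DESeq2 adjusted p = 0.0019), with 7047 to 8803 normalized counts in Young Sham and 2058 to 5886 in Young Bleo. Fat4, a giant cadherin, rose by 1.18 (SE 0.397, adjusted p = 0.0246; edgeR 0.0638) and by 1.54 in Aged Bleo against Aged Sham (SE 0.454, adjusted p = 0.0179; edgeR 0.101). Of the 6 TEAD and Vestigial-like partners, 4 were tested, and Tead2 was the one called.

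Of 17 further published YAP/TAZ targets, DESeq2 called 7 in the young response, 3 higher and 4 lower, beside 7.57% and 6.35% of all genes. Tgfb2, a TGF-beta ligand, rose by 1.65 (SE 0.28, adjusted p = 5.2e-07), Ptpn14, a phosphatase that binds YAP, by 0.87 (SE 0.189, adjusted p = 0.00016) and Fjx1 by 2.76 (SE 0.706, adjusted p = 0.0017). Nuak2, a kinase of the AMPK family, fell by 0.90 (SE 0.173, adjusted p = 1.2e-05) and the forkhead factor Foxf2 by 2.69 (SE 0.646, adjusted p = 0.00073). Axl, a receptor tyrosine kinase, fell by 1.18 (adjusted p = 0.0208; edgeR 0.0692) and Arhgef17 by 1.21 (adjusted p = 0.0098). Published targets of the same factors moved in opposite directions in the same libraries.

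Against the same Young Sham libraries, 5 of these 17 targets were called in Aged Bleo ECs, 3 higher and 2 lower, beside 6.58% and 3.14% of all genes. Ptpn14 (0.76, adjusted p = 0.0017), Fjx1 (2.08, adjusted p = 0.034; edgeR 0.108) and Igfbp3 (1.41, adjusted p = 0.0067) rose in this DESeq2 fit. Arhgef17 fell by 2.13 (adjusted p = 1.0e-06) and Foxf2 by 3.00 (adjusted p = 0.00016). Igfbp3, an insulin-like growth factor binding protein, ranged from 788 to 6137 within Aged Bleo. Against Aged Sham, Ptpn14 rose by 0.87 (adjusted p = 0.0033; edgeR 0.0545) and Nuak2 fell by 0.68 (adjusted p = 0.0145; edgeR 0.0909).

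Tgfb2 was the only one of the members and listed pathway genes for which DESeq2 called the difference between the aged and young responses. It had 344 to 413 normalized counts in Young Sham and 717 to 1653 in Young Bleo, but 395 to 747 in Aged Sham and 418 to 851 in Aged Bleo. The log2 fold change with bleomycin was 1.65 in young and -0.00 (SE 0.319) in aged mice, and the difference was -1.66 (SE 0.425, DESeq2 adjusted p = 0.0334). edgeR gave 0.336 for it, and the call held in 4 of the 16 fits without 1 library. In Aged Sham against Young Sham, Axl was the only listed pathway gene that DESeq2 called. It fell by 1.57 (SE 0.426, adjusted p = 0.0122; edgeR 0.111).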

How the data were processed

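Per the labels and the study's methods, the authors aligned reads to mm10 with STAR 2.5.2b in their MAPRSeq workflow and counted them per gene with featureCounts of Subread, and they deposited raw counts together with FPKM values, which are counts scaled to gene length and library total. The labels and the methods name different library kits, and the annotation release, strand setting and treatment of shared reads are not given in the sources used here. The deposited counts were fitted across all genes and 16 libraries with DESeq2 1.42.0 (R 4.3.3), with group as the only term. The 6 contrasts were taken from that fit, and p-values were adjusted over all genes tested. Alternatives were edgeR 4.0.16 (quasi-likelihood, TMM), DESeq2 with TMM factors, a filter at 10 counts in 3 libraries, limma 3.58.1 on log2(FPKM + 0.1), a fit of the compared groups alone, and fits without single libraries. Scripts were tested on simulated data. All 10 members were reported. Genes of the 4 pathway lists were named where called in a contrast. The members and lists were chosen with earlier results of these data known. The 25 pairs of libraries within groups differed beyond counting noise (chi-square per degree of freedom 27.1 to 365), so each was kept as 1 replicate. Limits from a count of 0 cover counting error only.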

Additional observations from a re-analysis of the deposited data

Results flagged for a closer look

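Ankrd1 in Young Bleo replicate 17, at 39.9 normalized counts, stood far from the other 3 libraries of its group, of which the nearest had 3.86. The gap took up 0.903 of the range of the group. Chance flags about 1 group in 20, and 30 groups of members were examined. Tgfb2, a listed target and no member, was called for a different response to bleomycin in aged and young mice, with a difference in log2 fold change of -1.66 by a DESeq2 contrast of the responses (adjusted p = 0.0334). edgeR did not call it (adjusted p = 0.336), and the call held in 4 of the 16 fits without 1 library. Its cause was not tested.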

How the results depend on the processing

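Group sizes of 3 to 5 limit all comparisons, and the wide spread of scarce genes such as Ankrd1 and Tead1 limits them further. With edgeR and with limma on FPKM, 0 members were called in Aged Sham against Young Sham. In Aged Bleo against Young Sham, limma called 1, Wwtr1, and lost Ajuba. With the 2 compared groups alone, 5 were called in Young Bleo against Young Sham. The next alternatives were added after seeing the data. Without Young Sham replicates 21 and 22 the counts were 0 in Aged Sham, 1 in Young Bleo and 1 in Aged Bleo against Young Sham, and Tead1 turned to 0.08 in Aged Sham. Without Aged Bleo replicates 1 and 2, 4 members were called in Young Bleo against Young Sham (Lats2, lower, beside the other 3), 1 in Aged Bleo against Young Sham (Ajuba), 1 in Aged Bleo against Young Bleo and 1 in the difference of responses (both Wwtr1, at -0.63 and -0.96). In that fit these log2 fold changes, none called, changed sign: Amotl2 to 0.14 against Young Sham, Yap1 to -0.03, Wwtr1 to -0.02, Lats2 to 0.25 and Ajuba to 0.09 against Aged Sham, Yap1 to -0.01 and Ajuba to 0.19 against Young Bleo, and Ctgf to 0.00 in the difference. Limma put the Yap1 difference at 0.03. The cause of these shifts was not tested.

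When single libraries were left out, the number of members called ran from 0 to 1 in Aged Sham against Young Sham, 2 to 5 in Young Bleo against Young Sham (5 without Young Bleo replicate 20) and 0 to 1 in Aged Bleo against Young Bleo (1 without Young Bleo replicate 17, Ankrd1). Changes that were not called crossed 0 there. In Aged Sham against Young Sham, Tead1 ran from -0.44 to 0.41, Tead4 from -0.27 to 0.09, Cyr61 from -0.62 to 0.14 and Ankrd1 from -0.12 to 0.84. In Young Bleo against Young Sham, Ctgf ran from -0.39 to 0.14 and Cyr61 from -0.39 to 0.16. Ctgf ran from -0.10 to 0.47 in Aged Bleo against Young Sham. In Aged Bleo against Aged Sham, Tead1 ran from -0.73 to 0.11, Ctgf from -0.76 to 0.02, Amotl2 from -0.04 to 0.23, Lats2 from -0.30 to 0.03 and Ajuba from -0.32 to 0.19. In Aged Bleo against Young Bleo, Ctgf ran from -0.03 to 0.62 and Ajuba from -0.19 to 0.27. In the difference of responses, Yap1 ran from -0.16 to 0.10, Tead4 from -0.28 to 0.07 and Ctgf from -0.69 to 0.10. TMM factors and the low-count filter changed no call or direction of a member. No paired analysis was possible because the replicate numbers do not repeat between groups.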
